A study of Mus musculus with 11 samples.

Results

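The genes described here are 10 antiviral genes that type I and type III interferons induce, named in the array files as DHX58, IRF7, OAS2, OASL2, IFIT1, IFIT2, IFIT3, RSAD2, USP18 and ISG15 (mouse Dhx58, Irf7 and so on), measured in the terminal ileum of SKG and BALBc mice. They were chosen by gene name, as all probes that carry one of these symbols. The array had 13 such probes, for 9 of the 10 genes, among 25697 probes with 18138 names in all. No probe in the files used carried the name Isg15, which is not analysed here. The tested group was naive SKG mice, a BALB/c-derived strain that is homozygous for a hypomorphic point mutation of Zap70, a kinase that relays the T cell receptor signal. The controls were naive BALBc mice. All were 8 to 12 weeks old and no treatment is given. The series holds 11 mice with 1 Illumina MouseRef-8 bead array each, of which 8 are used: SKG replicates 4 to 8, all in batch 3, and BALBc replicates 1 and 2 in batch 2 and replicate 3 in batch 3. The 3 arrays of batch 1 (all SKG) were left out because their rows are out of step with the probe names: signals matched by probe had rank correlations of 0.0768 to 0.0966 with the 8 other arrays, which correlated at 0.838 to 0.947 among themselves.

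Type I interferons signal through the receptor of Ifnar1 and Ifnar2, which most cells carry. Type III interferons signal through Ifnlr1 and Il10rb, and in the gut they act mainly on epithelium. Both receptors activate a transcription factor complex that includes Stat2 and Irf9, which binds a promoter element, the interferon-stimulated response element, and switches on antiviral genes. Dhx58 (LGP2) is a regulator of RNA sensing related to RIG-I. Irf7 is the transcription factor that amplifies interferon production. Oas2 and Oasl2 belong to the family of oligoadenylate synthetases, whose product activates RNase L. Ifit1, Ifit2 and Ifit3 bind foreign RNA or the translation machinery, and Rsad2 (viperin) makes a nucleotide that ends viral RNA chains. Usp18 removes the ubiquitin-like protein Isg15 from its targets and also damps signalling at the type I receptor.

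The promoter sequences show the element through which this group is known to be induced, and are printed for the 4 members that hold its core. In the mouse assembly GRCm38.p6 the genes lie on chromosomes 4 (Isg15), 5 (Oasl2 and Oas2), 6 (Usp18), 7 (Irf7), 11 (Dhx58) and 12 (Rsad2), with Ifit2, Ifit3 and Ifit1 close together on chromosome 19, between positions 34550550 and 34650009. RefSeq promoter windows, of 300 bases with 250 before the transcript start, were at hand for 7 of the 10 genes. The core searched was 2 copies of GAAA with 2 bases of any kind between them, on both strands (TTTC when read from the other strand). It was found in the windows of 4 genes, and in 3.44% of all 32851 windows of that length. The longer form, the same core followed by C, was found in Isg15, Ifit1 and Ifit3 and in 0.819% of all windows. Each stretch reads 5′ to 3′ on the strand of its gene, and capitals mark the core.
Isg15 (chr4:156200850-156200921, minus strand): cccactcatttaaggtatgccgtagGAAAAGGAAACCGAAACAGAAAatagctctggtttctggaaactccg
Ifit1 (chr19:34640760-34640838, plus strand): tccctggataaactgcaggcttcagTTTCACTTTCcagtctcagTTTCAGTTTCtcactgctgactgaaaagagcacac
Ifit3 (chr19:34583348-34583441, plus strand): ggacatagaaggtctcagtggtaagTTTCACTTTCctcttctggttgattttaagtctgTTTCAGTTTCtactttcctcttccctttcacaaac
Rsad2 (chr12:26456538-26456597, minus strand): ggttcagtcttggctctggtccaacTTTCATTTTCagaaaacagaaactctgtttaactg
The Isg15 window held 3 overlapping cores, between 56 and 78 bases before the start. Ifit1 held 2 cores between 75 and 104 bases before it, Ifit3 held 2 between 112 and 156 bases, and Rsad2 held 1 between 110 and 120 bases. The windows of Oasl2, Irf7 and Ifit2 (with 2 windows) did not contain these letters.

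Values below are bead signals after background correction and quantile normalisation, on the log2 scale, and a probe counts as above background on an array at a detection p under 0.05. Median raw signals were 98.5 to 105.6 in SKG, against 187.5, 163.0 and 103.7 in BALBc replicates 1, 2 and 3. Raw signals of all 13 member probes were higher on both batch 2 arrays than on any array of batch 3. The same held for 97.1% of all probes on the array, so raw signals were not compared between batches. Epithelial genes were well above background on all 8 arrays, and so were the ileal genes Fabp6 (13.49 ± 0.11 in SKG, n = 5, and 12.86 ± 0.58 in BALBc, n = 3, SD), Slc51a, Slc51b and Nr1h4. Slc10a2, the ileal bile acid transporter gene, and Fabp2 were at background on every array.

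No member passed the test between the strains, and the members did not all point the same way. Of the 13 probes, 10 were above background on at least 3 arrays and were tested, for 8 genes. None was called higher or lower in SKG (limma, batch as a random block, Benjamini-Hochberg adjusted p of 0.196 to 0.997). Over all 13775 probes tested, 48 were called higher (0.348%) and 36 lower (0.261%). At an unadjusted p under 0.05, 4 of the 10 member probes were higher in SKG, those of Oas2, Dhx58, Ifit3 and Rsad2, and none was lower. The background at that level was 7.55% of tested probes higher and 5.87% lower. Fitted differences were above 0 for 7 of 10 member probes, against 50.9% of all probes. Their median was 0.48 over the 10 probes, against 0.01 over all probes. In whole tissue, fewer cells that express a gene and less RNA per cell cannot be told apart.

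The RNA sensing regulator Dhx58 and the synthetase Oas2 were the members with the smallest p-values. Dhx58 had log2 signals of 6.72, 6.94, 6.76, 6.41 and 6.57 in SKG replicates 4 to 8, against 5.19, 5.38 and 6.14 in BALBc replicates 1 to 3. All SKG values lay above all BALBc values, and the nearest control was the animal of batch 3. The fitted difference was 0.76 (SE 0.27, 95% interval 0.17 to 1.34, limma adjusted p = 0.245). Oas2 had 5.94, 6.54, 6.18, 5.60 and 5.76 in SKG, against 4.85, 5.16 and 5.07 in BALBc. The groups did not overlap, and the controls of batch 2 lay on either side of the control of batch 3. Its fitted difference was 0.95 (SE 0.30, 95% interval 0.29 to 1.60, limma adjusted p = 0.196). Within batch 3, the difference was 0.54 for Dhx58 and 0.93 for Oas2. That comparison sets 5 SKG arrays against 1 BALBc array and assumes that the lone control varies as the SKG arrays do. There no member probe was called in either direction, where 0.0653% of all probes were called higher and 0.225% lower. At an unadjusted p under 0.05, Oas2 alone among the member probes was higher (limma adjusted p = 0.301) and none was lower, against 6.22% and 7.03% of all probes. With batch as a fixed block no member was called (0.269% of all probes higher and 0.436% lower). At an unadjusted p under 0.05 that fit had Oas2, Ifit3 and Rsad2 higher and none lower, against 7.64% and 8.29%. Batch 2 holds BALBc only, so the fixed block gives the same fitted differences as batch 3 alone and is no separate estimate. By these differences 7 of 10 member probes were above 0, against 51.6%. Raw signals of Oas2 were low, at 117.3 to 148.1 in SKG and 108.2 in the BALBc animal of batch 3. Standard errors over the beads of the Oas2 probe on each array were 2.86 to 4.81 in SKG and 2.70 in that animal. Dhx58 was also low, with raw signals of 136.7 to 169.5 in SKG and 136.6 in that animal. Its standard errors over beads were 3.32 to 5.34 in SKG and 3.28 in that animal.

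The transcription factor Irf7 overlapped between the strains. It had 9.45, 9.20, 9.20, 9.17 and 8.69 in SKG, against 8.95, 8.85 and 8.84 in BALBc. The SKG values enclosed those of all 3 controls. The fitted difference was 0.29 (SE 0.26, 95% interval −0.27 to 0.85, limma adjusted p = 0.678), and 0.30 within batch 3.

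**Figure D1:**
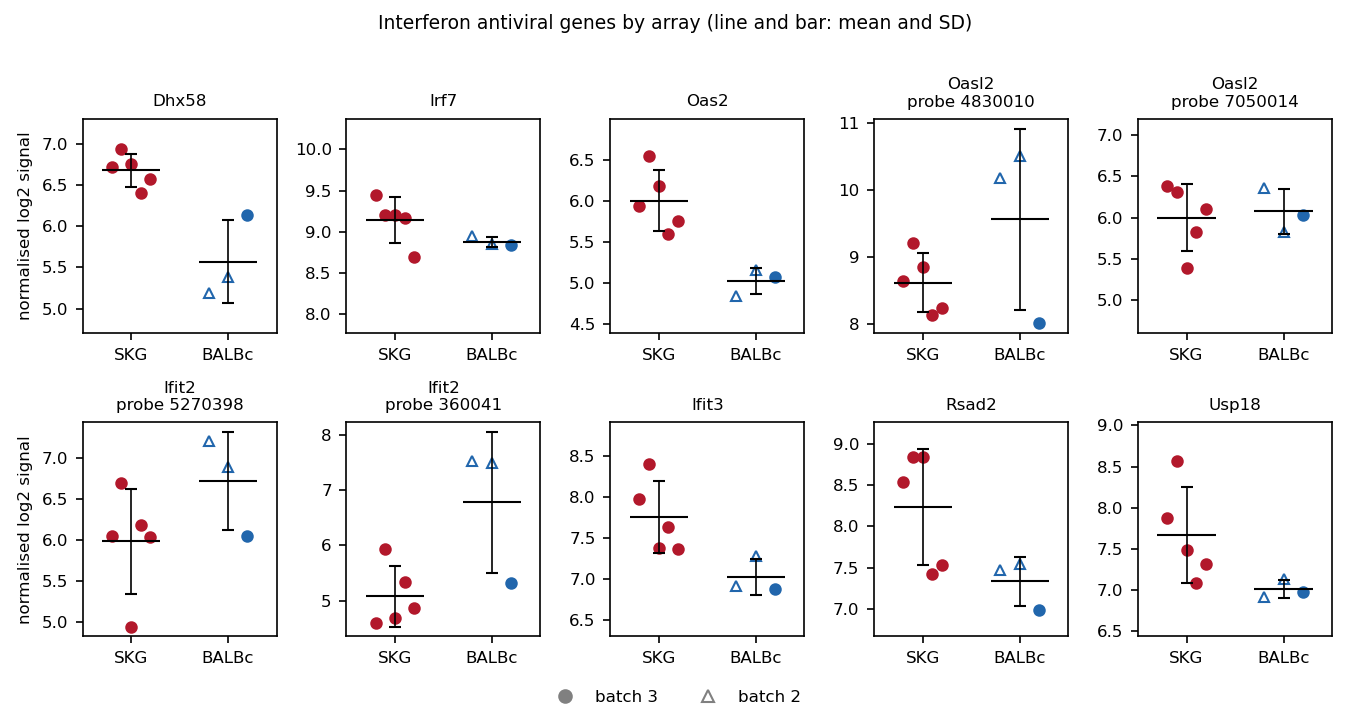
Normalised log2 signal of the 10 tested member probes on each array, with SKG left of BALBc. Circles are arrays of batch 3 and open triangles arrays of batch 2, and lines with bars give the mean and SD (n = 5 SKG, n = 3 BALBc). For Oas2, Dhx58 and Ifit3 all SKG points lie above all BALBc points, and for both Ifit2 probes and Oasl2 probe 4830010 the batch 2 controls lie above every SKG point.

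The genes of the Ifit family of RNA-binding proteins gave fitted differences of both signs, none past the threshold, and the difference between them was not tested. Ifit3 had 7.97, 8.40, 7.38, 7.63 and 7.37 in SKG, against 6.92, 7.28 and 6.88 in BALBc (probe 7510020). Every SKG value exceeded every BALBc value, with a fitted difference of 0.81 (SE 0.33, 95% interval 0.08 to 1.54, limma adjusted p = 0.319). Mouse Ifit3 has a close copy, Ifit3b, at positions 34607530 to 34613403 of the same chromosome, and what a probe for Ifit3 picks up from it was not tested. Ifit2 had fitted differences below 0 by both probes. Probe 5270398 gave 6.05, 6.69, 4.94, 6.18 and 6.03 in SKG, against 7.20, 6.89 and 6.05 in BALBc. Probe 360041 gave 4.59, 5.93, 4.69, 5.33 and 4.86 in SKG, against 7.53, 7.50 and 5.31 in BALBc. That probe was above background on only 3 of 5 SKG arrays, and on all 3 BALBc arrays. Its detection p was 0.110 in SKG replicate 4 and 0.107 in SKG replicate 6. On both probes the batch 2 controls were above all SKG animals, while the batch 3 control lay among the SKG values. Fitted differences were −0.32 (SE 0.45, 95% interval −1.31 to 0.67, limma adjusted p = 0.803) and −0.80 (SE 0.50, 95% interval −1.89 to 0.29, adjusted p = 0.533). Within batch 3 they were −0.07 and −0.23. Ifit1 stayed at background throughout, with a lowest detection p of 0.302 over the 8 arrays. The second Ifit3 probe, 670670, was above background on 1 SKG and 1 BALBc array, so neither was compared.

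Oasl2, the oligoadenylate synthetase-like gene, had 2 probes, of which 1 was apart between the control batches. Probe 4830010 had log2 signals of 8.64, 9.21, 8.85, 8.14 and 8.24 in SKG, against 10.17, 10.50 and 8.01 in BALBc. The batch 2 controls were above all SKG animals and the batch 3 control was below them. The plain means differed by −0.94, while the fit, which weighs the batches, gave 0.01 (SE 0.48, 95% interval −1.04 to 1.05, limma adjusted p = 0.997) and batch 3 alone gave 0.61. Probe 7050014 had 6.38, 6.31, 5.39, 5.82 and 6.10 in SKG, against 6.36, 5.83 and 6.03 in BALBc. There the groups overlapped and the fitted difference was −0.05 (SE 0.33, 95% interval −0.77 to 0.67, limma adjusted p = 0.965).

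Rsad2 and Usp18 were higher on average in SKG, with a wide spread between animals. Rsad2 had 8.54, 8.84, 8.84, 7.42 and 7.53 in SKG, against 7.47, 7.54 and 6.99 in BALBc. SKG replicates 4 to 6 stood above all controls, while replicates 7 and 8 lay at the level of the batch 2 controls. The fitted difference was 1.12 (SE 0.46, 95% interval 0.10 to 2.13, limma adjusted p = 0.326), and 1.25 within batch 3. Usp18 had 7.88, 8.57, 7.49, 7.08 and 7.31 in SKG, against 6.92, 7.13 and 6.98 in BALBc (probe 1580528). SKG replicate 7 alone overlapped with the controls. The fitted difference was 0.68 (SE 0.40, 95% interval −0.19 to 1.55, limma adjusted p = 0.504), and 0.69 within batch 3. A second Usp18 probe, 4610139, was above background on 1 SKG array and on no BALBc array, and was not tested.

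**Figure D2:**
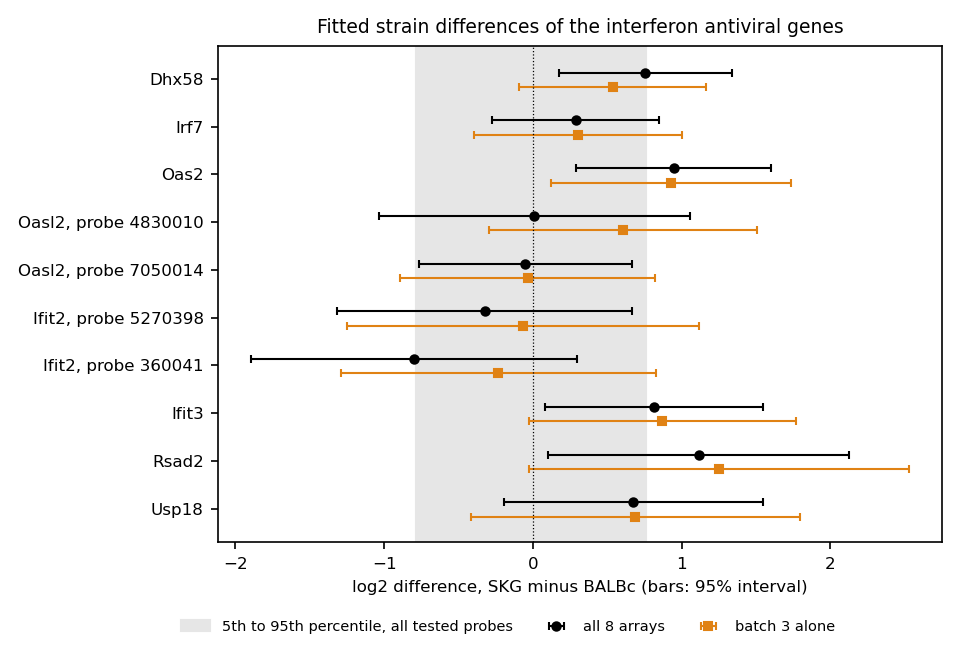
Fitted log2 differences, SKG minus BALBc, of the 10 tested member probes over all 8 arrays (black circles) and in batch 3 alone (orange squares, 5 SKG arrays against 1 BALBc array), with 95% intervals. The grey band spans the 5th to 95th percentile of all tested probes, −0.79 to 0.76. The intervals of Dhx58, Oas2, Ifit3 and Rsad2 over all arrays exclude 0 before adjustment for multiple tests, and none passed after it.

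The groups did not overlap for 3 of the 10 member probes, each higher in SKG (Dhx58, Oas2 and Ifit3), against 10.0% of all tested probes. None lay wholly below the controls, against 5.25%. Against the BALBc animal of batch 3 alone, all 5 SKG values were higher for 6 probes (Dhx58, Oas2, Oasl2 probe 4830010, Ifit3, Rsad2 and Usp18), a pattern seen in 22.0% of tested probes. No member had all 5 SKG values below that animal, against 21.3%. With 1 control in that batch these counts describe that animal as much as the strain. They also rest on the normalised values. In raw signals, SKG replicate 6 was below that animal for Ifit3 (165.8 against 174.0) and Usp18 (172.1 against 179.5). For Dhx58 it had 136.7 against 136.6.

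The 2 BALBc animals of batch 2 differed from the BALBc animal of batch 3 in opposite directions from member to member. Their mean exceeded it by 2.32 for Oasl2 probe 4830010, by 2.20 for Ifit2 probe 360041, by 1.00 for Ifit2 probe 5270398 and by 0.52 for Rsad2. For Dhx58 it was lower, by −0.86. Irf7, Oas2, Ifit3, Usp18 and the second Oasl2 probe differed by −0.07 to 0.22. A gap of over 2 was seen in 4.97% of all tested probes, and the SD of the gap over all tested probes was 1.03. Whether these gaps belong to the animals or to the batch cannot be told apart.

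Among the SKG animals, replicate 5 often had the highest signals of the member genes and of some other interferon lists. It was the highest of the 5 SKG arrays for 8 of 10 member probes and the lowest for none, while over all tested probes it was the highest in 12.7%. Replicate 4 was highest for the other two, Irf7 and Oasl2 probe 7050014. Averaged over the 10 probes, replicate 5 lay 0.55 above the SKG mean on the log2 scale, replicate 4 lay 0.10 above it, and replicates 6, 7 and 8 lay at −0.14, −0.24 and −0.27. Over all tested probes, these averages were between −0.02 and 0.01. Replicate 6, which was the highest or lowest SKG array for 34.8% and 34.9% of all tested probes, was the lowest for 2 member probes, including Ifit2 probe 5270398 (4.94, against 6.03 to 6.69 in the other SKG animals). The SKG range was widest for that probe, at 1.75, then for Usp18 (1.49) and Rsad2 (1.42), against a median range of 0.71 over all tested probes. For the Ifit2 probe the range rests on replicate 6, which was near background there (raw signal 101.1, detection p 0.0426). With each gene taken by its brightest tested probe, replicate 5 was the highest for 7 of 8 member genes, 6 of 11 genes that interferon-gamma mainly induces and 5 of 12 genes of class I peptide loading, at means of 0.54, 0.39 and 0.27 above the SKG mean. Of 33 other antiviral genes it was the highest for 7, at a mean of 0.18, while replicate 8 was the highest for 10. Replicate 5 was singled out after its values were seen, and no difference between these lists was tested.

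**Figure D3:**
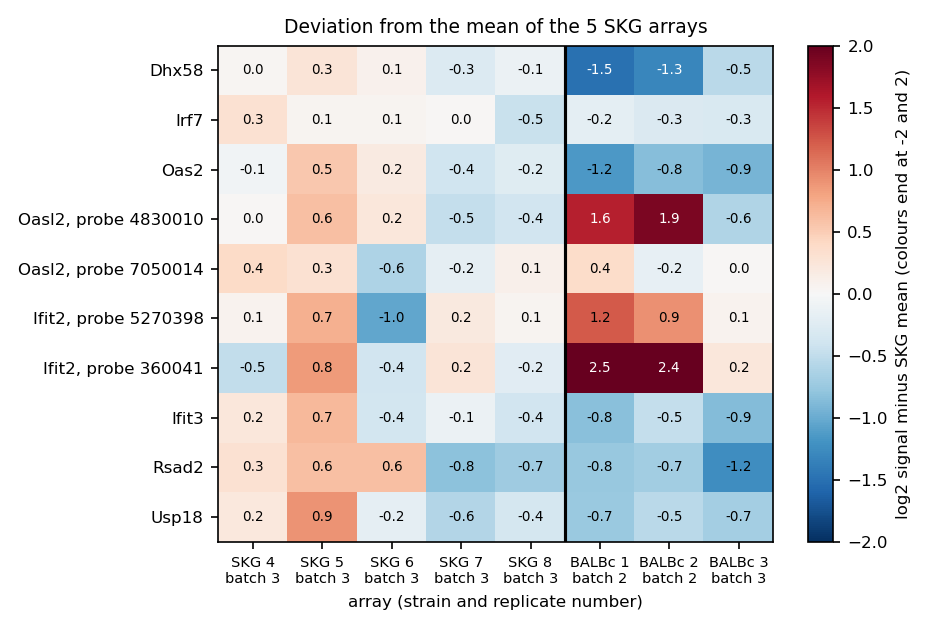
Log2 signal of each tested member probe (rows) on each array (columns, SKG left of BALBc), as the deviation from the mean of the 5 SKG arrays. SKG replicate 5 is above that mean in all 10 rows, and the 2 batch 2 columns are above it for Ifit2 and Oasl2 probe 4830010 and below it for Dhx58, Oas2, Ifit3, Rsad2 and Usp18.

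The other genes of the pathway were then described by lists, with each gene taken by its brightest tested probe. Over all 10414 genes tested that way, 43 were called higher (limma adjusted p under 0.05) and 25 lower, with a median difference of 0.01. Of the interferon genes, 3 of 21 were tested and none passed: Ifna6 differed by 0.39, Ifne by 0.37 and Ifna1 by 0.02. Ifnb1 and Ifng were not above background on enough arrays to be tested. Of 5 tested receptor chains none passed. Ifnlr1, the specific chain of the type III receptor, had 8.74 to 10.07 in SKG, against 7.76 to 8.33 in BALBc. Its fitted difference was 0.99 (SE 0.38, 95% interval 0.15 to 1.82, limma adjusted p = 0.286) from means of 9.23 ± 0.53 in SKG (SD, n = 5) and 8.10 ± 0.30 in BALBc (SD, n = 3). Its second probe differed by 0.62. Il10rb, the other chain of that receptor, differed by −0.53 (SE 0.51, limma adjusted p = 0.706), and by 0.20 within batch 3. Its mean was 6.93 in SKG, against 9.55 in the batch 2 controls and 6.73 in the batch 3 control. The type I receptor chain Ifnar2 differed by −0.42 (adjusted p = 0.578), and by −0.93 on its second probe, and Ifngr1 by 0.63 (adjusted p = 0.417).

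Among 10 signal transduction genes none passed, and the median difference was −0.004. Stat2 differed by 0.32 and Irf9 by 0.05, neither past the threshold. The feedback inhibitor Socs3 differed by 1.32 (SE 0.59, adjusted p = 0.360) and the phosphatase gene Ptpn6 by −0.56 (adjusted p = 0.466), and by −0.78 on its second probe. None of 17 tested genes of nucleic acid sensing passed, with a median of 0.19. The smallest p-values there were those of the adaptor Ticam1 (0.90, SE 0.37, adjusted p = 0.319), the kinase Irak4 (0.57, adjusted p = 0.334) and the ubiquitin ligase Traf6 (0.59, adjusted p = 0.450). A second tested probe of Ticam1 differed by 0.37. The other tested probes of Irak4 differed by 0.82 and −0.09, and those of Traf6 by 0.38 and −0.22.

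Of 33 other antiviral genes tested, 22 had a fitted difference above 0 and the median was 0.07. None passed as higher, and 1, Ifi35, was lower. Ifi35 had 5.55 ± 0.39 in SKG (SD, n = 5), against 7.79 ± 0.60 in BALBc (SD, n = 3), a fitted difference of −2.66 (SE 0.34, limma adjusted p = 0.00532), and −2.92 within batch 3. At an unadjusted p under 0.05, 5 of the 33 were higher and 4 lower, against 808 higher and 643 lower among all 10414 genes. Next by p-value were Ifitm3, a membrane protein that blocks viral entry (−0.94, SE 0.29, adjusted p = 0.189), and Apol9b (1.04, SE 0.35, adjusted p = 0.231). None of the 5 tested relatives of Oas2 and Oasl2 in that list passed: Oas1a differed by 0.20, Oas1c by 0.04, Oas1g by 0.72, Oas3 by 0.26 and Oasl1 by 0.76 (adjusted p of 0.360 to 0.965), with Oas1a above background on 3 SKG arrays and no BALBc array.

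Most genes that interferon-gamma mainly induces had fitted differences below 0. Of 11 tested, 10 were below 0, with a median of −0.76, against 7 of 8 member genes above 0, with a median of 0.72. Of these 7, Oasl2 stood at 0.01 by its brightest probe. Over all 10 member probes the median was 0.48, and over the 33 other antiviral genes it was 0.07. Within batch 3 the medians were −0.88 for the 11 genes and 0.65 for the 8 member genes. Of the 11, 1 passed as lower and 7 were lower at an unadjusted p under 0.05, against 25 and 643 of all 10414 genes. The chemokine gene Cxcl9 had 6.37 ± 0.11 in SKG (SD, n = 5) and 7.86 ± 0.08 in BALBc (SD, n = 3), and fell by 1.49 on the log2 scale (SE 0.21, limma adjusted p = 0.0100). The GTPase Gbp2 differed by −1.28 (SE 0.25, adjusted p = 0.0514) and the class II transactivator Ciita by −1.52 (SE 0.44, adjusted p = 0.160). Of 12 genes of the immunoproteasome and class I peptide loading, 9 were below 0 and none passed, with Tap1 at −1.33 (adjusted p = 0.120), Psmb8 at −1.39 (adjusted p = 0.146) and Pdia3 at 2.07 (adjusted p = 0.0797). The difference between these lists was not tested.

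**Figure D4:**
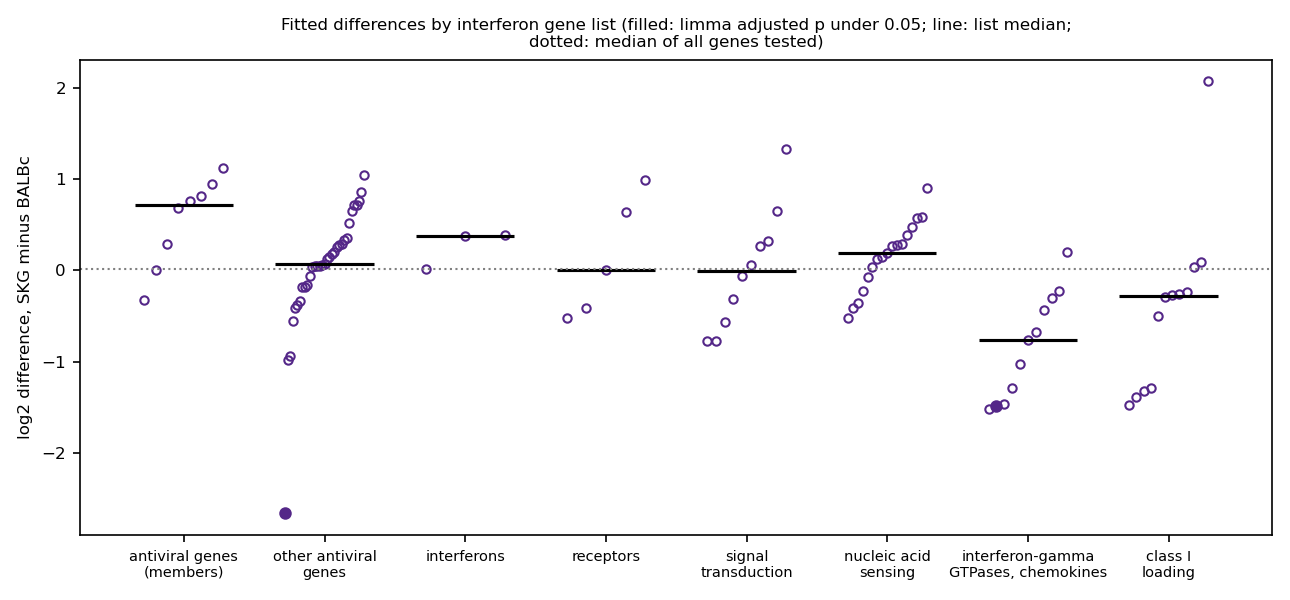
Fitted log2 differences, SKG minus BALBc, of each tested gene (points) in the antiviral genes described here and in 7 further interferon lists, with the median of each list as a line. Filled points passed (limma adjusted p under 0.05): Ifi35 and Cxcl9, both lower in SKG. The median is 0.72 for the 8 member genes and −0.76 for the interferon-gamma induced GTPases and chemokines.

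Most marker lists of leukocytes and of other non-epithelial cells had medians below 0 on the same arrays. All 11 tested T cell markers were below 0, with a median of −1.53, and Cd6 and Cd8b1 passed. Their summed normalised signal was 436 to 872 in SKG, against 1067 to 2578 in BALBc. For plasmacytoid and conventional dendritic cells, which are known sources of interferon, all 6 tested markers had fitted differences below 0. Their median was −0.33 and none passed. Their sums were 3620 to 4262 in SKG against 4733 to 8734 in BALBc, where the batch 3 animal was the lowest. These sums rest mostly on the bright Klk1 (mean log2 signal 10.77 in SKG and 11.73 in BALBc), Tcf4 (10.60 and 10.74) and, in BALBc, Irf8 (8.31 and 10.45). They say little of the dimmer Siglech (7.08 and 7.27) and Itgax (4.49 and 5.14). Within batch 3 alone, 2 of the 6 were above 0 (Klk1 at 0.05 and Itgax at 0.11). Of 12 markers in that list, Ccr9, Flt3 and Cd209a were at background on every array, as was the T cell marker Cd8a. Fitted differences were below 0 for 4 of 5 tested plasma cell markers (median −1.19), 7 of 9 macrophage markers (−0.73), 6 of 6 smooth muscle markers (−0.64), 6 of 6 endothelial markers (−0.45) and 4 of 4 B cell markers (−0.42), and none of these passed. For epithelium, 6 of 9 tested markers were above 0, with a median of 0.10. Their sums were 38162 to 45169 in SKG against 37481 to 46363 in BALBc. The 5 tested ileal enterocyte markers were all above 0, with a median of 0.30, and none passed. Their sums were 35038 to 38541 in SKG against 23222 to 31574 in BALBc, where the batch 3 animal was the highest. The part of these cells in the values of the antiviral genes was not tested.

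The mean profile of the members over the arrays was set beside those of all other tested probes. The mean centred profile of the 9 member probes above background on all 8 arrays was 0.29, 0.63, 0.0046, −0.17 and −0.15 in SKG replicates 4 to 8, against −0.11, −0.05 and −0.44 in BALBc replicates 1 to 3. The 8 other probes nearest to it were those of Scoc, Tmem53, Abhd10, BC022651, Klhl9, Rhot2, Aak1 and Zfp654, with a root mean square difference of 0.162 to 0.181 over the 8 arrays. None of these is in the interferon lists. They were picked as the nearest of all other tested probes, so close matches were bound to be found and no link to the members was tested. The member probes themselves lay farther from their own mean profile, at 0.244 (Irf7) to 0.849 (Oasl2 probe 4830010).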

How the data were processed

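RNA of terminal ileum was measured on 1-colour bead arrays, 1 per mouse. Per the file headers the authors exported mean signals (an intensity) from GenomeStudio 1.9.0 without normalisation, with the detection value deposited as a fraction (1 minus the detection p) and the number (count) of beads behind each signal. The submitters' processing notes also name limma. The authors' deposited table of log2 values (5045 probes, 4 of them members), with scale and centring not stated, served as an alternative, and the value table of the series held the same rows. Medians of its SKG columns (replicates 4 to 8) were 0.0476, 0.0488, 0.0196, 0.0703 and 0.0457, while those of its BALBc columns (replicates 1 to 3) were 0.186, 0.152 and 0.00801.

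Signals of the 8 arrays of batches 2 and 3 were background-corrected with normexp from detection p (offset 16), then quantile normalised, then log2 transformed (the neqc steps, in limma 3.58.1, statmod 1.5.0, R 4.3.3). Probes above background on at least 3 arrays were fitted with limma, SKG minus BALBc, two-sided, with batch as a random block (consensus correlation 0.544) and Benjamini-Hochberg adjustment at 0.05. A fitted difference weighs the batches and is not the difference of plain means. The fit was run on simulated data with known differences. The simulated batch effects were smaller than the gaps seen here between the control batches, so that run could not check the fit under such gaps. Of 18138 probe names, 14309 matched a RefSeq symbol and 2886 an older name, while 73 had several matches and 870 none. Sequences are those of RefSeq, assembly GRCm38.p6. The number of arrays, with 1 control in batch 3, limits precision. Members and lists were chosen with earlier results of these data known. Named in the text are all member probes, the genes past the threshold and the 3 with the smallest p in each interferon list, and the 8 probes nearest to the mean profile. Of these, 1 gene of signal transduction is not reported here. Other genes were named after their values were seen. The sum of markers is over the brightest tested probe of each gene, on the linear scale.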

Additional observations from a re-analysis of the deposited data

How the results depend on the processing

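No member probe was called under batch as a fixed block, batch 3 alone, 75th percentile scaling, cyclic loess, no background correction, a normexp offset of 50, no filter on dim probes, above background on all 8 arrays, the authors' deposited table (4 member probes) or no normalisation between arrays, the last of which was chosen after seeing the data. With no batch term 2 were higher, Dhx58 (1.11, adjusted p = 0.0358) and Oas2 (0.97, adjusted p = 0.0456). Without BALBc replicate 3, after which each batch holds a single strain, 2 were higher (Dhx58 at 1.40 and Oas2 at 1.01) and 3 lower: Oasl2 probe 4830010 at −1.73, Ifit2 probe 5270398 at −1.07 and Ifit2 probe 360041 at −2.45. Over the other 7 fits without 1 array, the count of called member probes was 0 in each direction, so these counts ran from 0 to 2 higher and from 0 to 3 lower. Over all alternatives the adjusted p ran from 0.000376 to 0.783 for Dhx58 and from 0.012 to 0.529 for Oas2.

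The sign of Oasl2 probe 4830010 (0.01) turned with no batch term (−0.94), cyclic loess (−0.0502), no background correction (−0.0462), a normexp offset of 50 (−0.0155), no filter (−0.42) and the authors' deposited table (−0.20). Leaving out 1 array gave −1.73 to 0.20 for it, −0.15 to 0.11 for Oasl2 probe 7050014 and −1.07 to 0.0462 for Ifit2 probe 5270398. Dhx58, Irf7, Oas2, Ifit3, Rsad2 and Usp18 stayed above 0 and Ifit2 probe 360041 below 0 under each alternative that tested them. The median over member probes (0.48) was −0.024 with no filter (13 probes) and −0.14 in the authors' deposited table. Both medians rest on other sets of probes, and the cause of the other shifts was not tested.

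Counts over all probes (48 higher, 36 lower) were 454 and 281 with no batch term, 9 and 31 in batch 3 alone, 102 and 45 with 75th percentile scaling, 26 and 42 with cyclic loess, 76 and 45 with no filter, 10 and 65 in the authors' deposited table, 10 and 131 with no normalisation between arrays, and 37 and 60 with batch as a fixed block. The share called higher was 57.1%, against 69.4% with 75th percentile scaling, 38.2% with cyclic loess, 46.5% with no background correction and 7.09% with no normalisation. The median of all probes was 0.17 with 75th percentile scaling and −0.13 with no normalisation, where the member medians were 0.58 and 0.31. Leaving out 1 array gave 7 to 2939 higher and 17 to 2217 lower, with 483 and 380 without SKG replicate 6 and the highest counts without BALBc replicate 3. No paired analysis was possible because the SKG arrays used carry the replicate numbers 4 to 8 and the BALBc arrays 1 to 3. Ifit1, Isg15 and dim probes of Ifit3 and Usp18 were limited by signal over background or by the lack of a probe name.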
